A study of Arabidopsis thaliana with 305 samples.

Results

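The early response of Arabidopsis thaliana leaves to the bacterial effector AvrRps4 was read from 12 of the 305 messenger RNA libraries of a larger series. They are all the libraries labelled as wild type (Col-0) at 4 h after infiltration with bacteria that carried either AvrRps4 or an empty vector (EV). Each of the 2 groups has 3 numbered replicates, and each replicate has 2 libraries under the same labels, whose counts were added, so that n = 3 per group, or 6 of the 156 replicates of the series. Plants were 6 weeks old and grown in short days, leaves were infiltrated by hand, and leaf discs were collected. Both groups received bacteria, so both carry the response to the bacterium itself, and by the labels they differ by the effector. The design text calls the strain Pf0, whereas the treatment protocol names Pst DC3000 strains, for growth curves, so which strain was infiltrated here rests on the design text alone. The labels do not say whether replicates are separate plants or days, or whether the 2 libraries of a replicate repeat the sequencing, the preparation or the sampling. The p-values come from 1 model of all groups of the series and measure the spread between replicates shared across them, which may be technical. The comparison asks which genes have answered the effector by 4 h. Later paragraphs also use other groups of the series, beyond these 12 libraries. Some are Col-0 with AvrRps4 or EV at an earlier and a later time, or with another effector, AvrRpt2, at 4 h. The others are mutant plants (nrg1, adr1 and helperless, described below) with AvrRps4 or EV at 4 h.

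AvrRps4 is a protein that Pseudomonas syringae injects into plant cells. In Col-0 it is recognised inside the cell by a pair of receptors with nucleotide-binding and leucine-rich repeat domains (NLRs), RRS1 and RPS4. The pair signals through EDS1, which works in separate complexes with PAD4 and with SAG101, and through helper NLRs of the ADR1 and NRG1 families. One known outcome is the production of salicylic acid by way of ICS1, and of N-hydroxypipecolic acid by way of ALD1 and FMO1, which together prepare leaves for resistance.

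The 12 libraries held 3753865 to 8758631 counts, and the 6 replicates 8219818 to 14051781. The 2 libraries of a replicate differed by far more than counting error. The chi-square per degree of freedom (genes averaging at least 50 counts in a pair) was 18.4 to 52.4 within the AvrRps4 replicates and 86.5 to 160 between them. In EV it was 13.8 to 40.4 within replicates and 10.8 to 62 between them, with medians of 22.2 and 29.7, so the ranges overlapped in EV. The helper gene ADR1-L1 and its relative ADR1-L2 had a count ratio of 1.93 to 3.6 in all 12 libraries, and 0 of them went against the wild-type label. The rule, a ratio above 10, is the same for Col-0 and nrg1.1 nrg1.2 plants. It can therefore tell wild type from adr1 triple and helperless plants only. One library stands apart. In the first library of AvrRps4 replicate 1, the salicylic acid marker PR1 was at 407 CPM, the unit of counts scaled to a common library total, and in the second library of the same replicate at 0.945 CPM. PR2, a glucanase, was at 986 and 8.12 CPM in the same pair, and PR5, a thaumatin-like protein, at 543 and 2.83 CPM. PR2 and PR5 were lower in each of the 304 other libraries of the series, with 35.3 and 101 CPM as the highest. Each count of called genes is therefore also given with replicate 1 taken from its second library alone, an alternative added after the data were seen.

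A gene was called where the edgeR quasi-likelihood adjusted p was under 0.05 and the change was at least 2-fold, which is 1 on the log2 scale. By this rule 131 genes rose with AvrRps4, 0.665% of the 19687 tested, and 0 fell. An unadjusted p under 0.05 was reached by 2119 genes, 10.8% of those tested. DESeq2 called 0.469% of the genes it tested, 96 up and 2 (0.00957%) down. The median change of all tested genes was 0.11 on the log2 scale. Of the 131, 102 (77.9%) had all 3 AvrRps4 replicates above all 3 EV replicates, as did 1496 of all tested genes, 7.6%. The replicates did not respond alike, since 87 of the 131 genes were highest in AvrRps4 replicate 2, 41 in replicate 1 and 3 in replicate 3. With replicate 1 taken from its second library, 109 genes rose (0.554%) and 0 fell. Of these, 91 were among the 131, and 31 of the 40 genes that were lost had been highest in replicate 1.

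The number of calls changed with the samples in the model. A model of these 6 replicates alone, which also tests fewer genes (17154) and has fewer degrees of freedom, called 0 genes in edgeR, with a lowest adjusted p of 0.224 and 1529 genes at an unadjusted p under 0.05. Of the 131 genes, 114 were tested there, all with a positive change and 112 at an unadjusted p under 0.05. The large model shares its estimate of the spread across all groups, whereas replicates here differed more with AvrRps4 than with EV. Between libraries of different replicates the median chi-square per degree of freedom was 114 with AvrRps4 and 29.7 with EV. Whether the shared estimate is too small for the AvrRps4 group was not tested. Without EV replicate 2 the large model called 19 genes, without EV replicate 3 it called 31, and without AvrRps4 replicate 2 it called 46, the 3 lowest counts of the 6 ways to leave out a replicate. Without EV replicate 1 it called 57, without AvrRps4 replicate 1 it called 87, and without AvrRps4 replicate 3 it called 155 up and 37 down. A set of 5 genes was called in all 6, and 5 were called in none of them.

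Genes of salicylic acid synthesis rose. ICS1, the enzyme that makes isochorismate from chorismate, stood at 208, 1122 and 569 CPM in the AvrRps4 replicates and at 80.8, 23.4 and 103 CPM in the EV replicates. All 3 AvrRps4 replicates lay above all 3 EV replicates, and replicate 2 was the highest under AvrRps4 and the lowest under EV. The change was 3.20 ± 0.59 (SE) on the log2 scale, with an edgeR adjusted p of 3.7e-04. EDS5, which carries isochorismate out of the plastid, was at 128, 746 and 414 CPM against 98.5, 45.9 and 70.5 CPM. It rose by 2.58 ± 0.55 on the log2 scale (edgeR adjusted p = 0.00333). PBS3, which joins isochorismate to glutamate, was at 269, 1518 and 730 CPM against 135, 29.7 and 116 CPM and rose by 3.17 ± 0.65 (edgeR adjusted p = 0.00255). Again the groups did not overlap and replicate 1 was the weakest of the 3. These are 3 of the 6 measured genes of synthesis and export. EPS1, which releases salicylic acid from the PBS3 product, was not called, at 3.14, 1.69 and 1.78 CPM against 2, 1.57 and 2.08 CPM. The list has a median change of 1.79 on the log2 scale, against 0.11 for all tested genes.

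In the EDS1 node PAD4 rose, and EDS1 rose only just beyond the threshold. PAD4, the partner of EDS1 in salicylic acid signalling, was at 166, 963 and 419 CPM against 127, 63.2 and 121 CPM, and rose by 2.32 ± 0.51 on the log2 scale (edgeR adjusted p = 0.0056). EDS1 itself was at 49.6, 203 and 114 CPM against 33.4, 27.4 and 45.6 CPM, with a rise of 1.79 ± 0.48 and an edgeR adjusted p of 0.0481. Its call was lost with DESeq2 (DESeq2 adjusted p = 0.063), with RLE size factors (edgeR adjusted p = 0.0943), with no filter on low counts (0.0571), with the older edgeR test (0.0613), without the libraries of other groups that go against their label (0.089) and with the replicate number as a block (0.0536). For both genes the weakest AvrRps4 replicate, replicate 1, lay just above the highest EV replicate. The receptor genes were not called: RPS4 was at 30.9, 69.6 and 42.4 CPM against 38.1, 36.9 and 41.7 CPM, and RRS1 differed by 0.11 ± 0.21 on the log2 scale. SAG101, the other partner of EDS1, differed by 0.13 ± 0.34. In all 2 of the 8 measured genes of this list rose, with a median of 0.21 on the log2 scale. Without EV replicate 2, which is low for most of these genes, none of ICS1, EDS5, PBS3, PAD4 and EDS1 was called, with changes of 1.55 to 2.7 and edgeR adjusted p-values of 0.0767 to 0.448. Without AvrRps4 replicate 2, ICS1 was called with 2.47, whereas the other 4 were not, at 1.18 to 2.39 on the log2 scale and edgeR adjusted p-values of 0.126 to 0.645. PAD4 and EDS5 also lost their call without EV replicate 3, as did EDS1, with edgeR adjusted p-values of 0.0833, 0.0833 and 0.195. EDS1 and PAD4 lost it without EV replicate 1 (0.313 and 0.05), and EDS1 without AvrRps4 replicate 3 (0.0923). With the second library of AvrRps4 replicate 1 alone, all 5 genes were called.

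**Figure D1:**
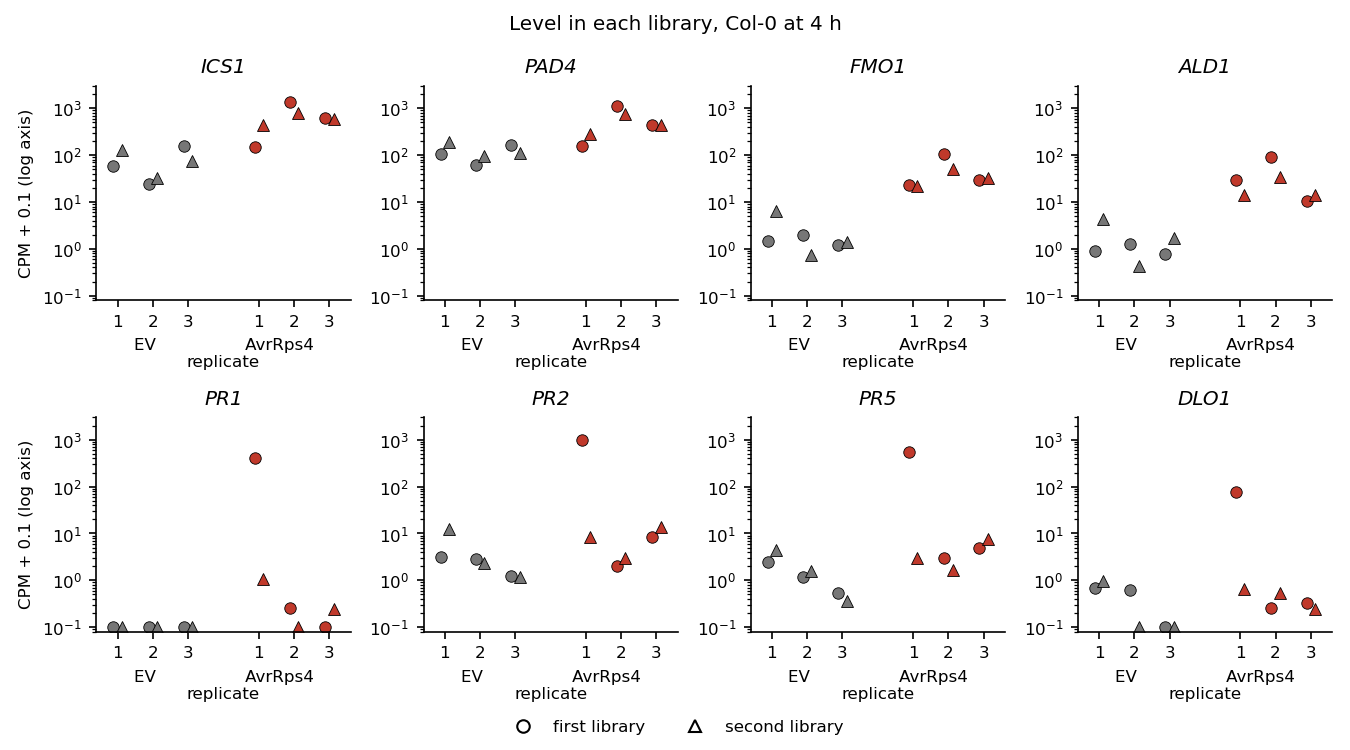
Level of 8 genes in each of the 12 libraries, as CPM + 0.1 on a log axis, with EV in grey and AvrRps4 in red, circles for the first and triangles for the second library of a replicate. ICS1, PAD4, FMO1 and ALD1 are raised in several AvrRps4 libraries, whereas for PR1, PR2, PR5 and DLO1 the circle of AvrRps4 replicate 1 lies far above the rest, at 407, 986, 543 and 75.8 CPM.

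Genes of N-hydroxypipecolic acid synthesis had larger folds, with a list median of 4.54 on the log2 scale with or without the library that stands apart. ALD1, which makes the pipecolic acid precursor from lysine, was at 19.4, 65.8 and 12.1 CPM with AvrRps4 and at 2.24, 0.662 and 0.936 CPM with EV. It rose by 4.66 ± 0.89 on the log2 scale (edgeR adjusted p = 6.2e-04). FMO1, which hydroxylates pipecolic acid, was at 18.6, 82.1 and 30 CPM against 3.44, 1.08 and 1.04 CPM and rose by 4.54 ± 0.92 (edgeR adjusted p = 0.00135). The groups were well apart for both genes, and with the second library of replicate 1 alone the changes were 4.54 ± 0.89 and 4.54 ± 0.92, still called. They are 2 of the 3 measured genes of the pathway. Without EV replicate 2 neither was called, with 4.22 and 4.16 on the log2 scale and edgeR adjusted p-values of 0.0646 and 0.1, and FMO1 was not called without EV replicate 3 either (4.13, edgeR adjusted p = 0.0685).

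The promoters of ICS1, ALD1, FMO1, EDS5 and WRKY70 are shown because these genes were called with or without the library that stands apart, that of DLO1 because its call rests on that library, and all 6 because regulators of salicylic acid synthesis have known target motifs. PAD4, PBS3 and EDS1, among others, were also called with or without that library and are not shown. Each line gives the 250 bases before the annotated gene start, from the RefSeq annotation of TAIR10.1, read 5′ to 3′ on the strand of the gene. Capitals mark matches, on either strand, to TTGACC or TTGACT (the W box of WRKY factors), TGACG (the motif of TGA factors) or GAAATTT (a motif of CBP60g and SARD1, which switch on ICS1). The windows are chr1:28070045-28070294, plus strand, for ICS1, chr2:5768167-5768416, plus strand, for ALD1, chr1:6653196-6653445, minus strand, for FMO1, chr4:18185187-18185436, plus strand, for EDS5, chr3:20910624-20910873, minus strand, for WRKY70, and chr4:6490767-6491016, plus strand, for DLO1.
ICS1: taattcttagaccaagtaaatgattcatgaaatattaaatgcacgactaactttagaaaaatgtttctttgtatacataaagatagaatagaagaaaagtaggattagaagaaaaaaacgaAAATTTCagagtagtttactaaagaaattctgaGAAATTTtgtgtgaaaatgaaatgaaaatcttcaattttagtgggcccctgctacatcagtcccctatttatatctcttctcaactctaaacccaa
ALD1: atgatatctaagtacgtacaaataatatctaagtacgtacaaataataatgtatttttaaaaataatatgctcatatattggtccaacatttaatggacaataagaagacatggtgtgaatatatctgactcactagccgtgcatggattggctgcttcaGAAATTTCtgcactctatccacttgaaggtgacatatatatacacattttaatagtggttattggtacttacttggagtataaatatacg
FMO1: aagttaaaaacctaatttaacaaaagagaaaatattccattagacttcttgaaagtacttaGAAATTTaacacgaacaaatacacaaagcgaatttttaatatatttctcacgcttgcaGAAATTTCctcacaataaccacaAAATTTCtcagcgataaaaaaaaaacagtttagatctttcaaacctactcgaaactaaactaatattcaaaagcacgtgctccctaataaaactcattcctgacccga
EDS5: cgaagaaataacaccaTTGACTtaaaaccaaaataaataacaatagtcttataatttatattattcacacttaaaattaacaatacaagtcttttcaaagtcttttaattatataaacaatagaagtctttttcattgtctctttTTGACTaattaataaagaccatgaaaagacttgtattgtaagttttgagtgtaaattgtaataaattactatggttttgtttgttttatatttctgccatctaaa
WRKY70: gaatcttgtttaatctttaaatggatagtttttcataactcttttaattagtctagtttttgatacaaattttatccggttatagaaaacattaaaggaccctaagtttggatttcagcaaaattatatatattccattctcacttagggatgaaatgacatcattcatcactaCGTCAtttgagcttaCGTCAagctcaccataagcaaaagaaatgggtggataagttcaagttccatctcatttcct
DLO1: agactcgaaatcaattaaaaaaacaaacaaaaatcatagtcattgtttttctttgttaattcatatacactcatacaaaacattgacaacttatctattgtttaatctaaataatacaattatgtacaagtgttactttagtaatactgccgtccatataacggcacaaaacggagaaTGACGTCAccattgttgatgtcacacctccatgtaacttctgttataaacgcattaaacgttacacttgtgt

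The windows of ICS1, ALD1 and FMO1 hold 2, 1 and 3 matches to GAAATTT, that of EDS5 holds 2 W boxes, and those of WRKY70 and DLO1 hold 2 and 1 matches to TGACG, the one of DLO1 inside TGACGTCA. The windows of PAD4, PBS3, PR1 and PR2 held none of the 3 motifs, and those of EDS1 and PR5 held 1 W box each. Each window shown holds a motif, so the windows are examples and do not stand for the called genes. Of the promoters of the 131 called genes, 37.4% held a W box, 25.2% a TGACG and 22.9% a GAAATTT. Of all 19571 promoters of tested genes that could be read, 28.8%, 19.4% and 12.8% did. Among the 91 genes that were also called with the second library alone, GAAATTT was in 27.5% and TGACG in 18.7%. Among the 40 genes called only with all libraries, GAAATTT was in 12.5% and TGACG in 40%. These shares are descriptions without a test. SARD1 was at 137, 359 and 268 CPM against 94.7, 29.3 and 54.2 CPM, a difference of 2.1 ± 0.59 that missed the threshold (edgeR adjusted p = 0.0792), with all 3 AvrRps4 replicates above EV. None of the 8 measured regulators of salicylic acid synthesis and none of the 11 genes of its perception was called, with medians of 0.46 and 0.36 on the log2 scale.

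Of 57 tested WRKY transcription factor genes, 2 rose, against 0.665% of all tested genes. WRKY70, a regulator between salicylic acid and jasmonate signalling, was at 223, 535 and 318 CPM against 89, 31.4 and 55.1 CPM, a change of 2.62 ± 0.67 on the log2 scale (edgeR adjusted p = 0.0306). WRKY51 was at 16.5, 39 and 24.6 CPM against 5.99, 1.02 and 1.66 CPM, a change of 3.21 ± 0.75 (edgeR adjusted p = 0.0128). Both had all AvrRps4 replicates above all EV replicates, as did 6 of the 57 in all (10.5%, against 7.6% of all tested genes), whereas 4 had all of them below, as did 728 of all tested genes. The median of the family was 0.03 on the log2 scale, against 0.11 for all tested genes. WRKY54, the closest relative of WRKY70, differed by 1.98 ± 0.70 without passing (edgeR adjusted p = 0.236). WRKY70 and WRKY51 both lost their call without EV replicate 2 (2.24 and 2.71 on the log2 scale, edgeR adjusted p = 0.408 and 0.32), without EV replicate 3 (2.45 and 2.82, edgeR adjusted p = 0.26 and 0.218) and without AvrRps4 replicate 2 (2.18 and 2.8, edgeR adjusted p = 0.293 and 0.129). WRKY70 was also not called without EV replicate 1 (edgeR adjusted p = 0.0901) or without AvrRps4 replicate 3 (0.055).

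Genes for intracellular receptors were frequent among the risers. By the product names of the annotation, a grouping made after the values were seen, 9 of the 131 called genes (6.87%) encode disease resistance proteins of the NLR class, a class that holds 0.665% of the tested genes. Of the 9, 8 were also called with the second library alone, and RPP1 stood at the 2-fold minimum without reaching it. AT5G51630, of the class with an amino-terminal TIR domain, was at 21.9, 78.3 and 38.1 CPM against 11.1, 6.8 and 8.74 CPM and rose by 2.38 ± 0.41 on the log2 scale (edgeR adjusted p = 1.5e-04), in each of the 6 leave-outs. RPP1 and RPP13, whose alleles in other accessions recognise a downy mildew, rose by 1.01 ± 0.23 and 1.13 ± 0.30. For these the AvrRps4 and EV groups overlapped, with 76.5, 221 and 127 CPM against 70.3, 60.7 and 79.4 CPM for RPP1. AT4G11170 was at 93.7, 944 and 339 CPM against 96.1, 26 and 61.5 CPM, where the lowest AvrRps4 replicate lay under the highest EV replicate. RPP1 and RPP13 were each called in 1 of the 6 leave-outs and AT4G11170 in 3. NLR genes often have near-identical relatives, between which short reads cannot always be told apart.

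Of the 6 helper receptor genes on the list, with a median of 0.69 on the log2 scale against 0.11 for all tested genes, AT5G66890 alone was called, annotated as a leucine-rich repeat protein and listed here with NRG1.1 and NRG1.2. It was at 3.67, 11.4 and 3.99 CPM against 0.559, 0.12 and 0.416 CPM and rose by 4.15 ± 0.80 on the log2 scale (edgeR adjusted p = 7.3e-04). Without EV replicate 2 the change was 3.57 and the edgeR adjusted p 0.1. ADR1, ADR1-L1 and ADR1-L2 differed by 0.75 ± 0.80, 0.58 ± 0.51 and 0.63 ± 0.39 on the log2 scale, NRG1.1 by 0.50 ± 0.25 and NRG1.2 by 1.32 ± 0.52, and none passed. Among 9 other immune receptors and partners, including RPS2 and RPM1, 0 were called, and the largest difference was 0.83 ± 0.28 for RPS6.

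Of 11 tested wall-associated kinases, receptor kinases at the cell surface, 2 were called, against 0.665% of all tested genes. WAK3 was at 37.6, 30.1 and 37.8 CPM against 4.48, 1.26 and 3.12 CPM, a change of 3.58 ± 0.93 (edgeR adjusted p = 0.0349). WAK1 was at 159, 109 and 43.6 CPM against 20.9, 14.1 and 10.8 CPM, a change of 2.76 ± 0.73 (edgeR adjusted p = 0.0428). Their groups did not overlap, and the WAK3 level of AvrRps4 replicate 1 combines 65.1 CPM in its first library with 14.4 CPM in its second. Neither passed with the second library of replicate 1 alone, at 3.19 ± 0.92 and 2.43 ± 0.72 on the log2 scale. Of 36 tested cysteine-rich receptor-like kinases, CRK4 (2.73 ± 0.73) and CRK6 (3.08 ± 0.78) were called, with edgeR adjusted p-values of 0.0481 and 0.0289. With the second library of replicate 1 alone CRK6 was at 1.04 ± 0.78 and CRK4 at 2.34 ± 0.72, both uncalled. WAK3 lost its call in each of the 6 leave-outs, WAK1 and CRK4 in 5 and CRK6 in 4, with changes of 3.15 to 3.99, 2.22 to 3.02, 2.07 to 3.07 and 1.28 to 3.5 on the log2 scale. By product name, 12 of the 131 genes (9.16%) are receptor-like proteins or kinases, against 3.95% of tested genes, and 6 of the 12 remained called with the second library alone.

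The 5 genes called in all 6 leave-outs include AT5G51630 above. CYP76C5, a cytochrome P450 of a subfamily that acts on monoterpenols, was at 8.79, 26 and 8.83 CPM against 0.639, 0.301 and 0.416 CPM and rose by 5.00 ± 0.81 on the log2 scale (edgeR adjusted p = 4.3e-05). ARI12, a RING-type protein, was at 7.92, 63.5 and 14.8 CPM against 1.44, 0.662 and 0.728 CPM and rose by 4.92 ± 0.84 (edgeR adjusted p = 1.1e-04). In both genes every AvrRps4 replicate was several times above every EV replicate. AT3G26470, a protein with an RPW8 domain, the domain that also begins the helper NLRs, was at 6.81, 22.3 and 6.28 CPM against 1.52, 0.542 and 1.56 CPM and rose by 3.32 ± 0.53 (edgeR adjusted p = 4.3e-05). AT4G09300, with LisH and RanBPM domains, was at 2.85, 17.4 and 3.57 CPM against 0.4, 0.361 and 0.52 CPM and rose by 4.21 ± 0.66 (edgeR adjusted p = 3.8e-05). Next to them in stability were AT5G52730 (4.94 ± 0.91), AT1G04490 (2.9 ± 0.53), AT5G24200 (4.23 ± 0.81) and PES2 (2.27 ± 0.44). Each of these 4 lost its call without EV replicate 2, at an edgeR adjusted p of 0.0646, and PES2 also without EV replicate 3 (0.0654). All 9 genes were called with the second library of replicate 1 alone. With replicate number 2 left out of both groups none of the 9 was called, with changes of 1.58 to 3.99 on the log2 scale and edgeR adjusted p-values of 0.108 to 0.409. AT5G52730, AT1G04490 and PES2 were also not called with the second library of each replicate (edgeR adjusted p = 0.128, 0.29 and 0.128).

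Among called genes on no list whose groups did not overlap, those with the highest levels were AT3G60420, a phosphoglycerate mutase family protein, at 210, 910 and 384 CPM against 141, 96.1 and 187 CPM, and AT3G47540, a chitinase family protein, at 116, 329 and 192 CPM against 50.9, 49.2 and 76 CPM. They rose by 1.83 ± 0.44 and 1.86 ± 0.50 on the log2 scale, with edgeR adjusted p-values of 0.0156 and 0.0499. AT1G69840, a membrane-associated protein of the SPFH domain family, was at 149, 235 and 181 CPM against 72.7, 67 and 85.6 CPM, and rose by 1.33 ± 0.29 (edgeR adjusted p = 0.00527). AT5G39670, a calcium-binding EF-hand protein, rose by 2.15 ± 0.55 and IQD14 by 1.05 ± 0.22. All 5 remained called with the second library alone except IQD14, whose change of 0.98 ± 0.22 was under the 2-fold minimum. Without EV replicate 2 none of the 5 was called, with changes of 0.91 to 1.87 and edgeR adjusted p-values of 0.183 to 0.423. The same held without EV replicate 3 (0.92 to 2.37, edgeR adjusted p = 0.0666 to 0.204) and without AvrRps4 replicate 2 (0.54 to 1.48, edgeR adjusted p = 0.141 to 0.652), and AT3G47540 was called in none of the 6 leave-outs. Without EV replicate 1, IQD14 was called and the other 4 were not, with edgeR adjusted p-values of 0.0913 to 0.345, and AT5G39670 was also lost without AvrRps4 replicate 3 (0.0558).

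BAP2, an inhibitor of cell death that binds the copine BON1, was at 46.9, 121 and 82.5 CPM against 8.79, 7.83 and 12 CPM. It rose by 3.14 ± 0.67 on the log2 scale (edgeR adjusted p = 0.00347) and was the 1 called gene among 11 tested genes of cell death, calcium and reactive oxygen. BON3, a copine, rose as well (2.93 ± 0.73, edgeR adjusted p = 0.0228). BAP2 kept its call without AvrRps4 replicates 1 and 3 and lost it in the other 4 leave-outs, with 2.74 to 3.20 on the log2 scale and edgeR adjusted p-values of 0.0551 to 0.143. AT1G26390, a FAD-binding berberine family protein, was at 15.6, 118 and 16.1 CPM against 2.64, 5.24 and 1.25 CPM and rose by 4.00 ± 0.77 (edgeR adjusted p = 6.0e-04), 1 of 5 measured berberine oxidases. Without AvrRps4 replicate 2, its highest replicate, the change was 2.32 (edgeR adjusted p = 0.289), and without EV replicate 3 it was 3.46 (0.0639).

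**Figure D2:**
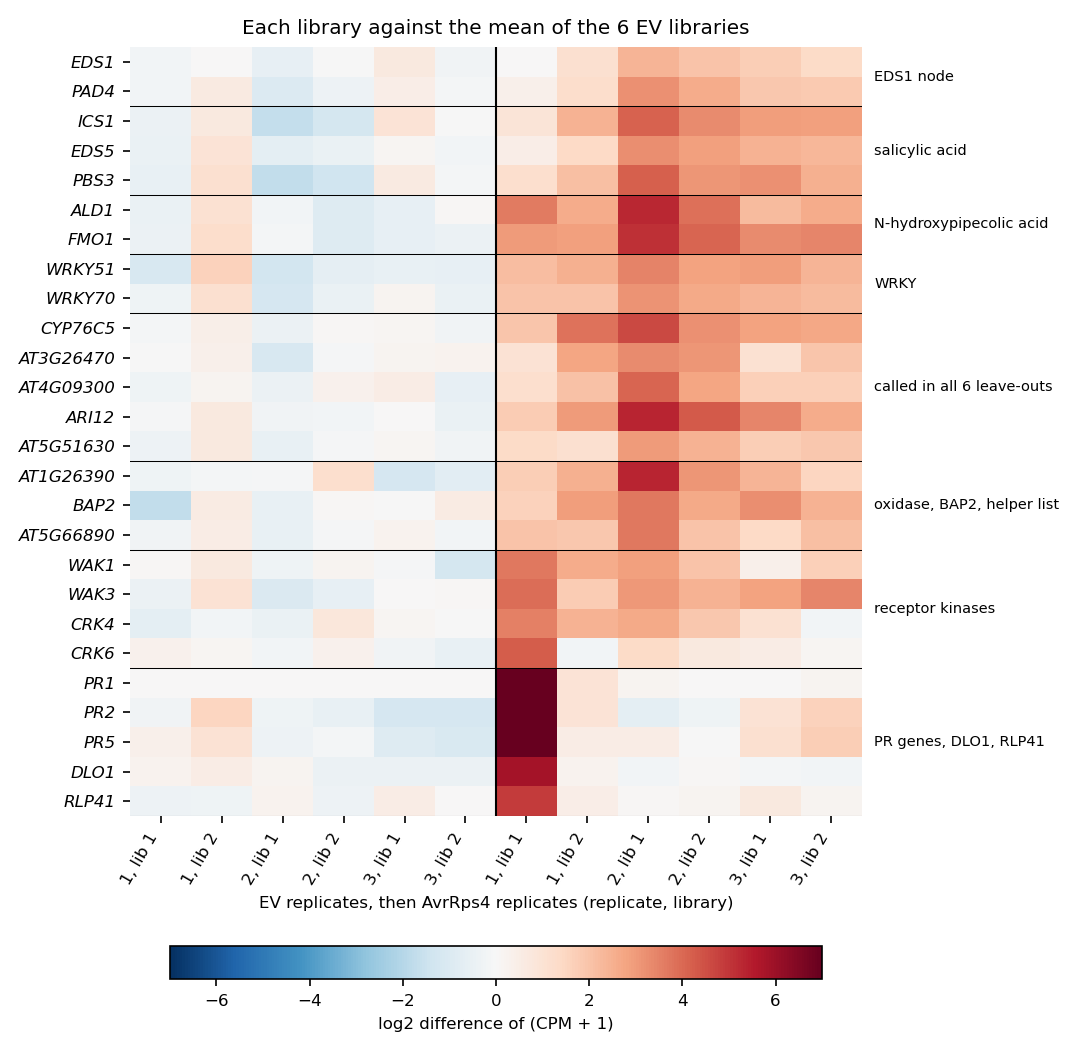
Log2 difference of CPM + 1 in each of the 12 libraries from the mean of the 6 EV libraries, for 26 called genes in 8 groups, with EV libraries left and AvrRps4 libraries right of the black line. Rows from EDS1 to AT5G66890 are mostly red in the AvrRps4 libraries and mostly deepest in those of replicate 2. In the first library of AvrRps4 replicate 1, EDS1, PAD4 and EDS5 are faint, at 42.6, 155 and 117 CPM. The PR genes, DLO1 and RLP41 are deep red in that library alone.

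The pathogenesis-related genes rest on a single library. All 3 on the list were called with all libraries, with edgeR changes of 5.72 ± 1.04 for PR2 and 6.03 ± 1.27 for PR5. PR1 had 3571 counts over the AvrRps4 group and 0 over the EV group, which is at least 1000-fold against a floor of 3 counts over the group. By replicate, PR1 was at 208, 0.0768 and 0.0849 CPM, PR2 at 505, 2.54 and 11 CPM against 6.71, 2.11 and 0.936 CPM with EV, and PR5 at 278, 2.3 and 6.28 CPM against 2.96, 1.02 and 0.312 CPM. Only replicate 1 was high in PR1 and PR2. With the second library of that replicate alone 0 of the 3 were called, PR2 and PR5 changed by 1.04 ± 0.81 and 1.34 ± 1.07, and the list median went from 6.03 to 1.34 on the log2 scale. Without AvrRps4 replicate 1 the changes were 1.01 for PR2 (edgeR adjusted p = 0.913) and 1.51 for PR5 (0.903). DLO1, which hydroxylates salicylic acid, followed the same library, at 38.8, 0.307 and 0.17 CPM against 0.639, 0.241 and 0 CPM, and its change went from 5.38 ± 0.87 to −0.06 with the second library alone. RLP41, a receptor-like protein, went from 3.26 ± 0.53 to 0.58 ± 0.45, and CAX3, a calcium and proton exchanger, from 3.81 ± 0.65 to 0.85 ± 0.60. In that library 15 of the 131 genes, and 47 of all tested genes, had their highest value of all 305 libraries. ICS1 was at 148 CPM in the first library of the replicate and at 431 CPM in the second, both above the EV replicates, and PBS3 was at 242 and 472 CPM. What sets the library apart was not tested.

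**Figure D3:**
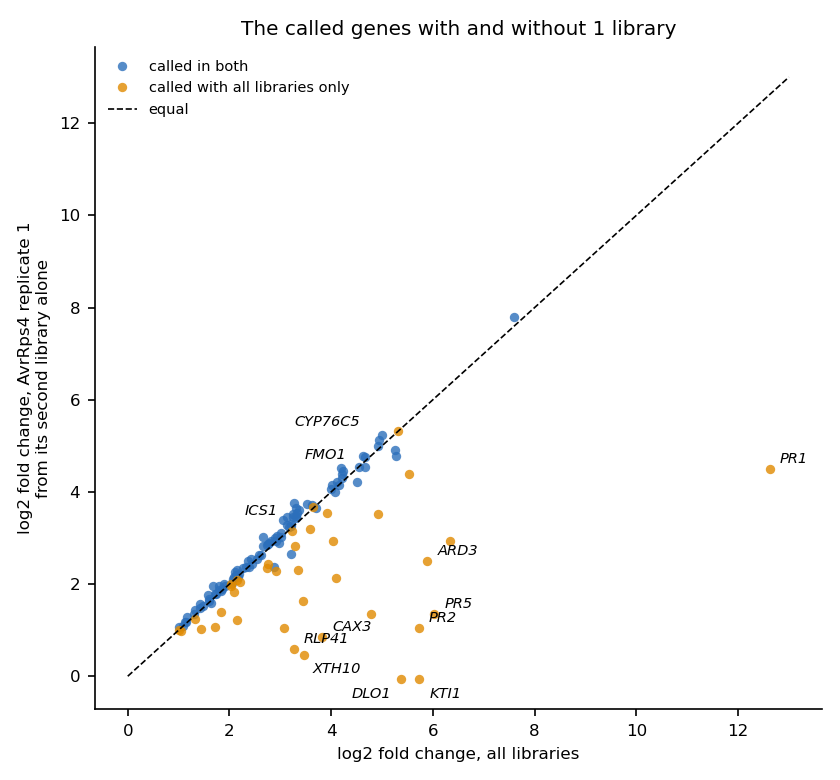
Log2 change of 130 of the 131 called genes with all libraries (horizontal) and with AvrRps4 replicate 1 from its second library alone (vertical). Genes called in both are blue, and genes called with all libraries only are orange. LUP5 was not tested with the second library alone and is not shown. The 91 blue genes lie along the dashed line of equality, whereas PR1, PR2, PR5, DLO1, KTI1, RLP41 and CAX3 lie well below it; the plotted change of PR1 is a fitted value against 0 EV counts and no bound.

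Low EV counts limit a few more folds. Of the called genes 4 had 0 counts over the EV group, namely PR1, AT2G29220 (at least 23.8-fold), GA20OX1 (at least 6.16-fold) and CLE16 (at least 5.04-fold), each against 3 counts over the group. In 6 others the EV group held 1 to 3 counts, as in AT1G02350 with 40 counts against 2, a ratio of 16.8 with a 95% counting interval of 4.36 to 144. These bounds cover counting error only. Also, 36 of the 131 called genes overlap another annotated gene, EDS5, AT3G26470, AT5G51630 and RPP13 among them. No strand setting is given, so reads of the overlapping genes cannot be told apart.

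Genes on the lists of pattern-triggered immunity, a surface immune response, were not called in either direction. FRK1, a kinase gene induced by flagellin, was high in every library, at 600, 1814 and 2170 CPM with AvrRps4 and at 2606, 1364 and 1231 CPM with EV. The groups overlapped, and the change was −0.18 ± 0.60 on the log2 scale (edgeR adjusted p = 0.951), with 0.14 without AvrRps4 replicate 1 and 0.18 without EV replicate 1. None of 10 measured outputs of pattern-triggered immunity and none of 17 genes of its receptors and signalling was called, with medians of 0.50 and 0.10 on the log2 scale. The summed level of the 10 outputs was 1270, 4398 and 4156 CPM with AvrRps4 and 4415, 2720 and 2709 CPM with EV. Replicate 1 was thus the lowest in the AvrRps4 group and the highest in the EV group. For camalexin and indole metabolism 0 of 12 genes were called, with a median of 1.01 on the log2 scale. CYP71A13, an enzyme of camalexin synthesis, was at 89.7, 11.6 and 105 CPM against 17.7, 19.3 and 12.4 CPM, a difference of 2.06 ± 0.85 (edgeR adjusted p = 0.362), with replicate 2 inside the range of EV.

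Jasmonate genes, which salicylic acid signalling is known to restrain, were not called lower. Of 12 genes of jasmonate synthesis and signalling 0 were called, with a median of −0.04. LOX2, the first enzyme of the pathway, was at 2980, 389 and 921 CPM against 1055, 650 and 597 CPM. Among 13 outputs and breakdown genes, with a median of −0.15, VSP2 was called higher (4.93 ± 1.22, edgeR adjusted p = 0.0226). It was at 62.4, 0.461 and 11.5 CPM against 1.68, 0.662 and 0 CPM, so the groups overlapped. With the second library of replicate 1 alone it was not called (3.52 ± 1.17, edgeR adjusted p = 0.189), and without AvrRps4 replicate 1 it was at 2.85 (0.606). Without EV replicates 1, 2 or 3 the edgeR adjusted p was 0.0723, 0.264 and 0.235.

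Photosynthesis genes were higher in AvrRps4 replicates 1 and 2 but not in replicate 3. The summed level of 24 genes was 45782, 55919 and 19618 CPM with AvrRps4 and 25634, 16625 and 26470 CPM with EV. All 24 had a positive change with a median of 0.92 on the log2 scale, yet 0 were called and 1 had non-overlapping groups. LHCB2.2, a light-harvesting protein, had the largest difference, at 947, 1084 and 137 CPM against 215, 182 and 287 CPM (1.66 ± 0.92, edgeR adjusted p = 0.509). Tissue markers were present in both groups, as the leaf disc label says, and 0 of 22 were called. The summed mesophyll markers were at 5522 to 12342 CPM with AvrRps4 and 4562 to 7133 CPM with EV, those of guard cells at 31.7 to 44.7 and 28.2 to 45 CPM, those of epidermis and trichomes at 457 to 1044 and 689 to 853 CPM, and vascular markers at 584 to 844 and 506 to 790 CPM. In leaf discs, fewer cells of a type and less RNA per cell cannot be told apart. Clock genes, a check on the time of collection, had a median of 0.02, with 0 of 11 called.

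**Figure D4:**
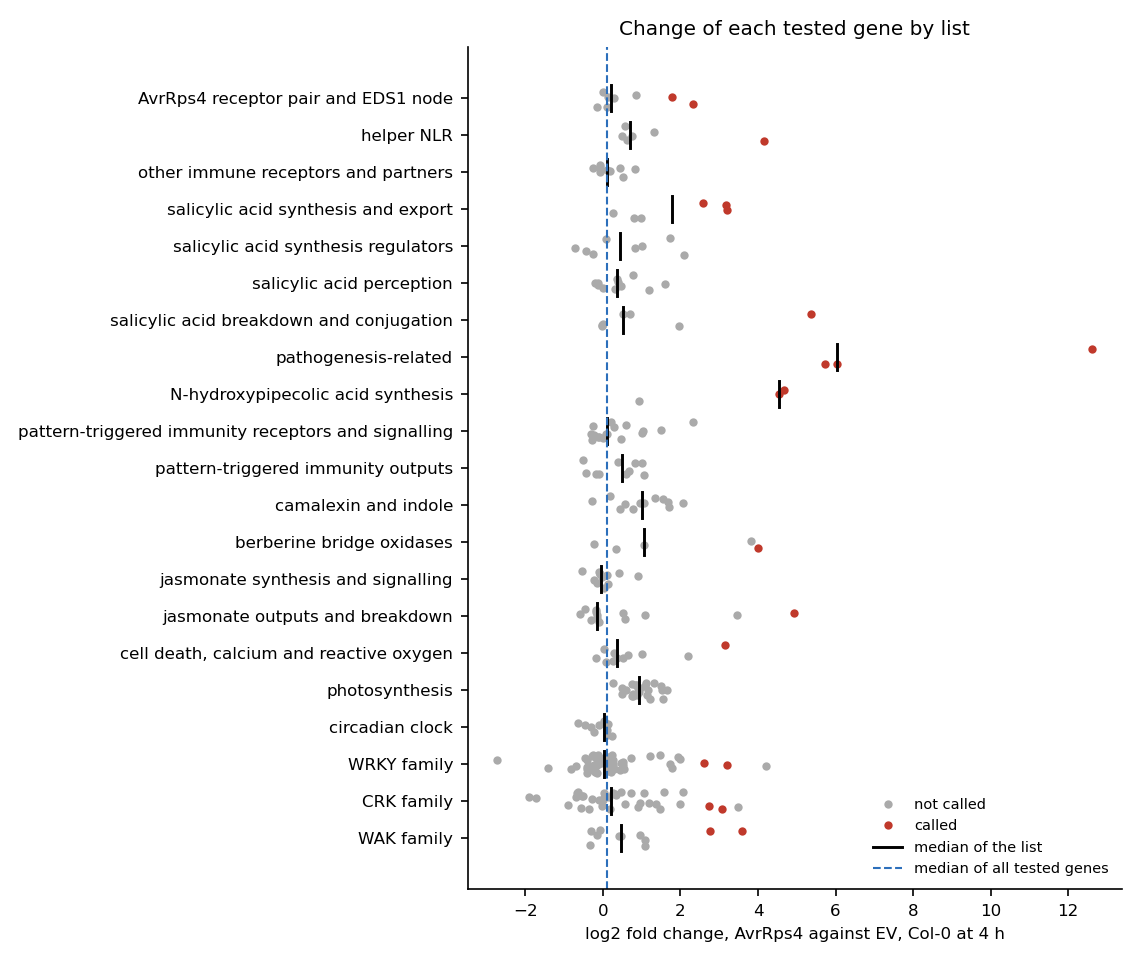
Log2 change with AvrRps4 against EV in Col-0 at 4 h for each tested gene of 21 lists, in red where called, with the list median as a black bar and the median of all tested genes, 0.11, as a dashed line. Called genes sit in 12 of the lists, with 3 each in the pathogenesis-related list and that of salicylic acid synthesis, whereas the 24 photosynthesis genes all lie right of 0 and none is called; the position of PR1 is a fitted value against 0 EV counts and no bound.

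The called genes can be followed into groups with their own EV controls. At 8 h, both libraries of Col-0 EV replicate 3 go against their label, with ADR1-L1 to ADR1-L2 ratios of 97.7 and 56.8, above the value of 10 used to tell wild type from adr1 plants. In Col-0 at 8 h, 93 of the 131 genes were called up with AvrRps4 and 1 down, whereas 755 of all tested genes (3.84%) were called up and 241 (1.22%) down. The median change of the 131 was 2.74 on the log2 scale at 8 h. Without the libraries that go against their label, 81 were called up and 1 down, against 439 (2.21%) and 126 (0.633%) of all tested genes, and the median was 2.82. Of the 91 genes that did not depend on the library that stands apart 74 were called up at 8 h, and of the other 40 genes 19 were. At 0.5 h 0 of the 131 were called and their median was −0.28, when 3 of all tested genes (0.0152%) were called up. ICS1 was at 20.7 ± 3.49 CPM (SD, n = 3) with AvrRps4 and 31 ± 4.67 CPM with EV at 0.5 h, and at 519 ± 176 CPM against 59.8 ± 28.4 CPM at 8 h. Its AvrRps4 replicates at 4 and 8 h overlapped, and its change at 8 h minus that at 4 h was −0.08 ± 0.76, or 0.44 ± 0.83 without the libraries that go against their label.

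A direct test of the change at 8 h minus that at 4 h called 4 genes, 2 in each direction, each 0.0102% of the genes tested. AT1G52315 rose at 8 h only, from 1.1 ± 0.341 CPM (SD, n = 3) with EV to 8.77 ± 0.379 CPM with AvrRps4, against 2.26 ± 0.763 and 2.06 ± 0.617 CPM at 4 h, a difference of 3.1 ± 0.57 (edgeR adjusted p = 0.00721). CPFTSY, a receptor of the chloroplast signal recognition particle named here after its values were seen, differed by 1.76 ± 0.38 (edgeR adjusted p = 0.039). AT1G02350 and KTI1 had the opposite sign, with −8.49 ± 1.74 and −7.15 ± 1.37. AT1G02350 had 0 counts with AvrRps4 at 8 h, so its value is no bound, and KTI1, a trypsin inhibitor, rested on AvrRps4 replicate 1 at 4 h (17.4, 0 and 0.17 CPM). With the second library of that replicate alone KTI1 was at −1.36 (edgeR adjusted p = 0.801). Without EV replicate 1 at 4 h none of the 4 was called, with edgeR adjusted p-values of 0.0979 to 0.107 and AT1G52315 at 2.82 and CPFTSY at 1.76. Without the libraries that go against their label AT1G52315 was called at 2.99 ± 0.63 (edgeR adjusted p = 0.0433), as were AT1G02350 and KTI1, and CPFTSY was not (1.64 ± 0.41, 0.275). CPFTSY was also lost without EV replicates 2 or 3 (1.90 and 1.74, edgeR adjusted p = 0.0547 and 0.0946) or AvrRps4 replicate 3 (1.66, 0.121) at 4 h, and AT1G02350 without EV replicate 2 (−8.64, 0.0581).

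The response was also measured in helper mutants. The series holds nrg1.1 nrg1.2 double mutants (here nrg1), the adr1 triple mutant, which lacks the ADR1 genes (here adr1), and helperless plants, which lack both families, each with its own EV group of 3 replicates at 4 h. Replicates 1 and 3 of nrg1 with AvrRps4 have 1 library each, so nrg1 has 10 libraries here and adr1 and helperless have 12 each. The ICS1 levels of these replicates, 163 and 1416 CPM, thus come from single libraries. In nrg1, ICS1 was at 163, 479 and 1416 CPM with AvrRps4 and at 104, 142 and 88.5 CPM with EV, a change of 2.62 ± 0.57 on the log2 scale. In adr1 it was at 16.6, 18.4 and 112 CPM against 35.2, 43.2 and 40.8 CPM, a change of 0.31 ± 0.54. In helperless it was at 9.39, 25.1 and 56.3 CPM against 24.5, 37.7 and 48.8 CPM, a change of −0.29 ± 0.54. ICS1 was above every EV replicate of its genotype in all 3 nrg1 replicates, in 1 adr1 replicate and in 1 helperless replicate. Of the 131 genes, 30 were called up in nrg1, where 32 of all tested genes (0.163%) were called, and 0 were called in adr1 and in helperless, where 0 of all tested genes were called by edgeR and 1298 (6.59%) and 237 (1.2%) had an unadjusted p under 0.05. In nrg1 that share was 7.2%. The median change of the 131 was 1.75 in nrg1, 0.38 in adr1 and −0.13 in helperless. All 91 genes called with the second library alone had a positive change in nrg1, against 55% of all tested genes. Their medians were 2.09 in nrg1, 0.39 in adr1 and −0.16 in helperless, and for the other 40 genes they were 0.81, 0.33 and 0.01.

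**Figure D5:**
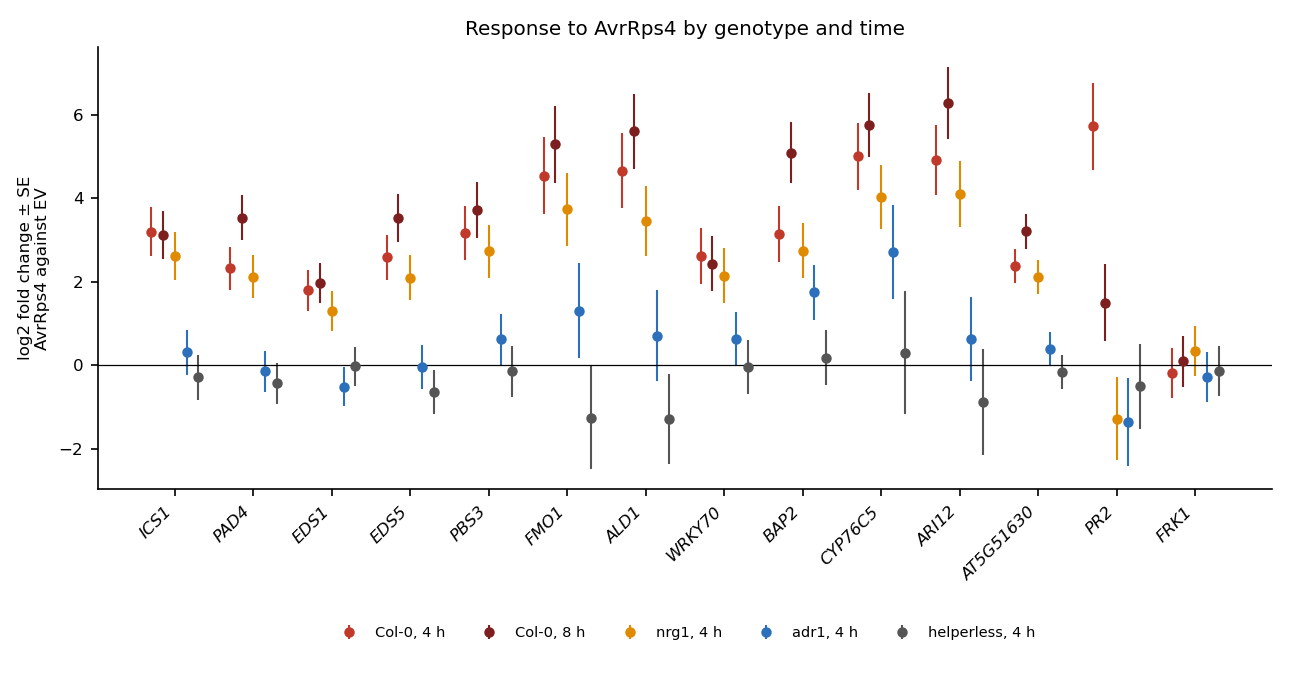
Log2 change with AvrRps4 against the EV group of the same genotype and time, with bars of 1 SE, for 14 genes in Col-0 at 4 and 8 h and in nrg1, adr1 and helperless at 4 h. The Col-0 and nrg1 points lie together above those of adr1 and helperless for most genes, for ICS1 at 3.20, 3.12 and 2.62 against 0.31 and −0.29, whereas PR2 is high in Col-0 at 4 h and FRK1 is near 0 in all groups.

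Tests of the differences between genotypes depended on the use of the replicate numbers. Without them, for helperless minus Col-0 edgeR called 0 genes, with 849 (4.31%) at an unadjusted p under 0.05, and DESeq2 called 1 (0.00395%). The ICS1 response differed by −3.49 ± 0.79 in helperless (edgeR adjusted p = 0.0814) and by −2.9 ± 0.78 in adr1 (edgeR adjusted p = 0.698). For adr1 minus Col-0 edgeR called 0, with 419 (2.13%) at an unadjusted p under 0.05, and DESeq2 called 2 (0.0079%), the same number as for nrg1. The difference for nrg1 was −0.58 ± 0.76 for ICS1, and edgeR called 1 gene lower, PR2 (−7.0 ± 1.39, edgeR adjusted p = 0.0394, 0.00508% of genes). PR2 was at 2.04, 1.33 and 2.67 CPM in nrg1 with AvrRps4, against 505, 2.54 and 11 CPM in Col-0, and with the second library of Col-0 replicate 1 alone the difference was −2.32 and 0 genes were called. Without Col-0 AvrRps4 replicate 1 the difference was −2.35, and without EV replicates 2 or 3 the edgeR adjusted p was 0.4 and 0.352. Leaving out 1 Col-0 replicate gave 0 to 3 called genes for helperless, 0 to 4 for nrg1 and 0 to 2 for adr1.

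Replicates of the same number and treatment deviated together in Col-0, helperless and adr1, so the replicate number was also used in the model. It entered as a term shared by all 4 genotypes, nrg1 included, although same-numbered AvrRps4 replicates of nrg1 and Col-0 did not all deviate together. With the number as a block within each treatment and time, an alternative added after the data were seen, the AvrRps4 response was lower in helperless than in Col-0 for 105 genes (0.533%) and higher for 8 (0.0406%). In adr1 it was lower for 29 genes (0.147%) and higher for 1 (0.00508%). Genes of salicylic acid synthesis and of the EDS1 pair were among the lower ones in both mutants. ICS1 differed by −3.78 ± 0.60 on the log2 scale in helperless (edgeR adjusted p = 2.3e-04) and by −3.31 ± 0.60 in adr1 (edgeR adjusted p = 0.00378). EDS5 differed by −3.11 ± 0.55 and −2.87 ± 0.55, PBS3 by −3.61 ± 0.74 and −3.19 ± 0.74, PAD4 by −2.67 ± 0.53 and −2.38 ± 0.53, and EDS1 by −1.87 ± 0.42 and −2.19 ± 0.42. FMO1 (−6.57 ± 1.52) and ALD1 (−6.74 ± 1.41) were called lower in helperless, and in adr1 they missed the threshold at −4.24 ± 1.61 and −4.64 ± 1.57 (edgeR adjusted p = 0.478 and 0.368). All of these calls were also made with the second library of Col-0 replicate 1 alone, where 111 genes (0.564%) were lower and 7 (0.0355%) higher in helperless, and 44 (0.223%) lower and 1 higher in adr1. PR2 was lower in both mutants with all libraries, at −4.75 ± 1.08 and −6.06 ± 1.16, and in neither with the second library alone, at −1.63 and −2.55. Of the 131 genes 57 were lower in helperless and 17 in adr1, but the 131 were chosen on the same Col-0 samples, so these counts describe them and support nothing. In nrg1, where same-numbered AvrRps4 replicates did not all deviate together with those of Col-0, the block called 0 genes, with 654 at an unadjusted p under 0.05, and PR2 was at −5.03 (edgeR adjusted p = 0.16).

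AvrRps4 was also set against AvrRpt2, an effector recognised by the receptor RPS2, in Col-0 at 4 h. With all libraries 15 genes (0.0762%) were higher with AvrRps4 and 1 (0.00508%) lower. DESeq2 called 39, and 3726 genes had an unadjusted p under 0.05. With the second library of AvrRps4 replicate 1 alone 0 genes were called. The named genes among the 15 were those of that library, DLO1 (5.30 ± 0.87), PR2 (5.70 ± 1.04), CRK6 (4.45 ± 0.89), RLP41 (3.57 ± 0.55) and PR1. The 1 lower gene, AT5G60350, was at 0.932, 0.691 and 3.31 CPM with AvrRps4 and at 7.9, 11.8 and 8.33 CPM with AvrRpt2, with a difference of −2.52 ± 0.55 (edgeR adjusted p = 0.0217), and was at −2.42 (0.0583) with the second library alone. Without AvrRps4 replicate 1 the 5 named genes and AT5G60350 all lost their call and 0 genes were called, whereas 49 were called without AvrRps4 replicate 2 and 861 without AvrRps4 replicate 3. The cause was not tested. ICS1 was at 1058, 1127 and 901 CPM with AvrRpt2, against 208, 1122 and 569 CPM with AvrRps4, a difference of −0.70 ± 0.54 (edgeR adjusted p = 0.461). The ICS1 levels of both effectors overlapped, so no difference was detectable at this spread.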

How the data were processed

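Messenger RNA was selected on oligo(dT) beads, copied with random hexamers and sequenced from a single end to 50 bases (HiSeq4000), per the labels' protocols. The authors deposited raw counts per gene in 1 table of 25320 genes. Per the submitters' processing notes, FastQC 0.11.7, Trimmomatic 0.36, HISAT2 2.1.0 and featureCounts (Subread, no version given) were used with TAIR10, and no strand setting is given. Of the gene identifiers, 24966 matched the RefSeq annotation of TAIR10.1, which gave names, products and promoters, and 354 did not.

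Counts of the 2 libraries of a replicate were added. Replicates with 1 library, all of them in other groups than Col-0 AvrRps4 and EV at 4 h, were used as they are. Levels per replicate are CPM after TMM scaling (a trimmed mean of log ratios), with factors of 0.963 to 1.22, and CPM of single libraries are not scaled. CPM compare a gene between samples, not genes with each other. Tests used edgeR 4.0.16 (robust quasi-likelihood, filterByExpr) in R 4.3.3 on all 52 groups of the series in 1 model without covariates, with Benjamini-Hochberg adjustment over all 19687 genes tested, and SE is the log2 change divided by the square root of F. DESeq2 1.42.0 was an alternative. The fit was checked on simulated counts. These had the same spread in all groups, no effect of the replicate number and no library that stands apart. The check therefore does not cover those features of the data.

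The genes, lists and motifs were chosen with earlier results of these data known. Named genes are ICS1, PAD4, EDS1, PR1, FMO1 and FRK1; up to 4 called genes per list with the largest change, or the largest change where none was called; the 10 called genes with the lowest worst adjusted p over the 6 leave-outs; and the 5 called genes of highest level on no list with non-overlapping groups. In other comparisons they are those of these genes that were called, and the 3 with the lowest adjusted p. Other genes named were chosen after their values were seen. The deviations of same-numbered replicates from their group means showed no pairing between AvrRps4 and EV in Col-0 at 4 h (correlations of -0.04, -0.09 and -0.06). Between Col-0 and helperless they were 0.53 to 0.73 with AvrRps4 and 0.29 to 0.42 with EV, and between Col-0 and adr1 0.39 to 0.79 and 0.27 to 0.36, so there the numbers pair the samples within a treatment, a pairing read from the data and not stated in the labels. For nrg1 the AvrRps4 correlations were 0.41, -0.25 and 0.61, and between 4 and 8 h in Col-0 they were 0.54, 0.27 and 0.50 with AvrRps4 and 0.18, 0.00 and 0.09 with EV, so AvrRps4 samples meet the 0.1 asked of every pair across times and EV samples do not. Between AvrRps4 and EV at 4 h the correlations were 0.27 to 0.50 in helperless, 0.12 to 0.56 in adr1 and -0.50 to -0.08 in nrg1. The block within each treatment and time does not include a pairing of AvrRps4 with EV samples.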

Additional observations from a re-analysis of the deposited data

Results flagged for a closer look

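Each of 45 named genes was checked in the 6 AvrRps4 and the 6 EV libraries for a library far from the other 5, as a gap, divided by the range of log2(CPM + 1), above Dixon's 95% critical value for 6 libraries. Chance flags about 1 in 20 sets of 6 independent libraries. Here the libraries are 2 from each of 3 replicates, so that rate need not apply, and 11 of 90 sets were flagged. Of these, 5 are the first library of AvrRps4 replicate 1, with PR1 at 407 CPM, PR2 at 986 CPM, PR5 at 543 CPM, DLO1 at 75.8 CPM and CRK6 at 40.5 CPM. AT5G66890 was at 17.5 CPM in the first library of AvrRps4 replicate 2. In the second library of EV replicate 1, FMO1 was at 6.39 CPM, PR2 at 12.2 CPM, WRKY51 at 12.4 CPM and AT1G04490 at 2.48 CPM, each the highest of the EV libraries. AT3G26470 was the lowest in the first library of EV replicate 2, at 0.132 CPM.

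The change with AvrRps4 differed between 8 and 4 h, by the edgeR interaction test, for AT1G52315 (3.1 on the log2 scale), CPFTSY (1.76), KTI1 (-7.15) and AT1G02350 (-8.49). It differed between nrg1 and Col-0 at 4 h for PR2 (-7.0). KTI1 and PR2 rest on AvrRps4 replicate 1 in Col-0 at 4 h.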

How the results depend on the processing

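All counts are genes called, and for each value that moved the cause was not tested. The 131 genes that rose became 572 with libraries unsummed, 11 with the second library of each replicate, and 0 with only the groups of the comparison, with or without a replicate block. Leaving out 1 replicate gave 19 to 155 genes, and leaving out a replicate number in both groups gave 9 to 73. The 0 genes that fell became 1 without a minimum fold change, 2 with DESeq2, 16 with the first library of each replicate, 61 unsummed, 2 with only the Col-0 groups, and 0 to 37 in the leave-outs. With the replicate block in the large model 140 genes rose, and the numbers do not pair AvrRps4 with EV samples in Col-0 at 4 h.

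The 16 genes against AvrRpt2 became 0 with the second library of AvrRps4 replicate 1 alone, 39 with DESeq2, 10 and 42 with the first or second libraries, 1679 unsummed, 7 with the older edgeR test, 4 with only the Col-0 groups, 0 with only the groups of the comparison, also with a replicate block, and 0 to 861 in the leave-outs. The 4 genes of the difference between 8 and 4 h became 14 with DESeq2, 8 with RLE size factors, 1 and 243 with the first or second libraries, 955 unsummed, 7 with only the Col-0 groups, 0 with only the groups of the comparison, 1 with a replicate block there, and 0 to 8 in the leave-outs. For helperless the 0 became 1 with DESeq2, with the first libraries and with only the groups of the comparison (also blocked), 117 unsummed, 4 with the replicate block, 2 without libraries against their label, and 0 to 3 in the leave-outs. For nrg1 the 1 became 2 with DESeq2, 3 unsummed, 0 with the second libraries, the second library of AvrRps4 replicate 1 alone, the older test or only the groups of the comparison (also blocked), and 0 to 4 in the leave-outs. For adr1 the 0 became 2 with DESeq2, 28 unsummed, 1 with the replicate block and 0 to 2 in the leave-outs. With the replicate block within treatment and time, helperless had 113, adr1 30 and nrg1 0, and with the second library of AvrRps4 replicate 1 alone as well 118, 45 and 0.

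The sign turned for FRK1 (0.18 without EV replicate 1, 0.14 without AvrRps4 replicate 1, 0.56 without replicate number 1), PROPEP2 (-0.14 and -0.07 without replicate 2) and LOX2 (-0.27 without AvrRps4 replicate 1), none of them called; their leave-outs gave -0.82 to 0.56, -0.14 to 1.51 and -0.27 to 1.31. DLO1 turned to -0.06 with the second library of AvrRps4 replicate 1 alone and -0.41 without that replicate, and against AvrRpt2 to -0.14 and -0.46, as PR1 did to -0.57. Their leave-outs gave -0.41 to 6.37, and against AvrRpt2 -0.46 to 5.93 and, for PR1, -0.57 to 9.68. With 50 bases after the gene start added, the shares for the W box, TGACG and GAAATTT were 41.2%, 26.7% and 26% of called and 33.2%, 23.9% and 14.7% of all tested promoters. Of 35 named called genes, 25 stayed called with the second library of AvrRps4 replicate 1 alone, 31 with DESeq2, 28 with RLE size factors, 9 without EV replicate 2, 7 with the second library of each replicate, 3 without replicate number 2 and 0 with only the groups of the comparison. EDS1 and AT3G47540 lost their call with DESeq2, RLE size factors, no filter and the older test, CRK4 and WAK1 with the latter 3, WAK3 with DESeq2, WRKY70 and AT5G39670 with RLE size factors, and IQD14 with DESeq2 and RLE size factors.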

Other observations

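With AvrRps4 replicate 1 taken from its second library alone, 18 further genes were called, among them SCPL7, a serine carboxypeptidase-like protein (3.25 ± 0.71 on the log2 scale, edgeR adjusted p = 0.0064), P5CS2, an enzyme of proline synthesis (1.82 ± 0.45, edgeR adjusted p = 0.0212), and AGO3, an Argonaute protein (2.27 ± 0.56, edgeR adjusted p = 0.023). These 3 were picked after their values were seen. By product name, 8 of the 131 called genes (6.11%) are RING or U-box proteins, against 2.03% of tested genes, and 6 of them were also called with the second library alone. They include PUB54, RING1 and ARI12, in a family that marks other proteins with ubiquitin. Cytochrome P450 genes made up 4 of the 131 (CYP76C5, CYP76C6, CYP71B20 and CYP714A1), 3.05% against 0.757% of tested genes, and 3 were also called with the second library alone. Of the 67 tested genes with a photosystem or light-harvesting product name, 0 were called.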
